A study of Mus musculus with 2 samples.

Results

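The 10 genes S100a8, S100a9, Camp, Ngp, Lcn2, Elane, Mpo, Saa3, Hp and Wfdc21 belong to neutrophil granules and cytosol or to the acute-phase response. These 10 of 32285 mouse genes were taken by symbol from tables of UMIs (unique molecular identifiers, each standing for 1 captured mRNA molecule). They were chosen by their levels in the cell classes of these same libraries and by how those differed between them, so every level and ratio is given as a description without a test. Each level is a CPM (counts per 1e+06): within a library, all cells of 1 class were added up, and the gene's UMIs were scaled to 1e+06 UMIs of that sum. These 3′ counts carry no scaling by transcript length.

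Tumours came from female C57BL/6 mice aged 6 to 8 weeks. Their peritoneal wall had been abraded and syngeneic ovarian cancer cells, which carry p53 loss with Myc and Hras, had been injected intraperitoneally. Mice of the control group received control IgG (7 mice) and those of the treated group an Activin A neutralizing antibody (8 mice), by injection into the peritoneal cavity for 10 days per the labels. The study's text gives other numbers of mice and days for its single-cell experiment, which was not settled here. Tissue from the abrasion site was pooled within a group, digested, and depleted of red and dead cells without selecting a cell type. Each group was thus 1 single-cell library, and antibody and control cannot be told apart from any other difference between the 2 libraries.

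Neutrophils mature in the bone marrow and fill their granules in a fixed order. Primary (azurophil) granules with elastase and myeloperoxidase are made at the promyelocyte stage, and secondary granules with cathelicidin, lactoferrin and lipocalin are made later, when Elane and Mpo transcription has ceased. Calprotectin, the S100A8 and S100A9 heterodimer, fills the cytosol of mature neutrophils and is also made by monocytes. Acute-phase proteins such as serum amyloid A and haptoglobin are made by the liver in inflammation, and Saa3 and Hp also outside it by macrophages, stromal cells and granulocytes.

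The control library held 98174850 UMIs and the antibody library 74117462, and 9342 and 6897 cells passed limits on genes (500 to 8500), on UMIs (500 to 100000) and on mitochondrial transcripts (10% or less). The median cell held 5398 and 4361 UMIs. Cells were classed from at least 3 detected markers of 1 of 16 lists, none of which held any of the 10 genes, and 21 cell barcodes occurred in both libraries, 0 of them in the neutrophil class. Barcodes with under 100 UMIs held 6.39% and 6.23% of all UMIs, and their summed counts served as the profile of free RNA. All intervals are 95% intervals and cover counting error only, since 1 library stood for each group. In summed counts, fewer RNA molecules per cell and fewer cells with the RNA cannot be told apart, so shares of cells are given beside levels.

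The sequences before the starts of 5 of the genes are shown because these genes stand for the patterns described: both calprotectin genes, 1 gene of each granule type and the acute-phase gene with the highest level outside neutrophils. Each is the stretch upstream of both the RefSeq and the GENCODE start (RefSeq promoter table, GRCm38.p6), written 5′ to 3′ on the strand of the gene. Capitals mark matches on either strand to TTNNGNAA, a form of the C/EBP motif, or to GAGGAA, a form of the PU.1 motif, factors that act in granulocyte development.
S100a8 (chr3:90668821-90668977, + strand): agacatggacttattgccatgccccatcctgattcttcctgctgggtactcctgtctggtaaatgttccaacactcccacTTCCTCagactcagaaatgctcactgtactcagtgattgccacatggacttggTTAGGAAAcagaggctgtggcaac
S100a9 (chr3:90695722-90695971, - strand): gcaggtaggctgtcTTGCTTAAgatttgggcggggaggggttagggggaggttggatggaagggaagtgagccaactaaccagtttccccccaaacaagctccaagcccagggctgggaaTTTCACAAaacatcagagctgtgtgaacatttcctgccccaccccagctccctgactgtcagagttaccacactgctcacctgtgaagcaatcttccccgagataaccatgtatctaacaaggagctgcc
Ngp (chr9:110419558-110419746, + strand): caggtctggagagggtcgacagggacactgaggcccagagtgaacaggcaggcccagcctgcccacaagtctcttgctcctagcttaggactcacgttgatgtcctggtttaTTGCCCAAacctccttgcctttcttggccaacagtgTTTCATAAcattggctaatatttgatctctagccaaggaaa
Elane (chr10:79886062-79886246, + strand): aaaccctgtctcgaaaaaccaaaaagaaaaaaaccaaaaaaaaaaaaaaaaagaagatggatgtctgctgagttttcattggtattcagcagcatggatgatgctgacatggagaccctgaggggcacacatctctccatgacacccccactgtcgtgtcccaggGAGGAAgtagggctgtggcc
Saa3 (chr7:46715701-46715926, - strand): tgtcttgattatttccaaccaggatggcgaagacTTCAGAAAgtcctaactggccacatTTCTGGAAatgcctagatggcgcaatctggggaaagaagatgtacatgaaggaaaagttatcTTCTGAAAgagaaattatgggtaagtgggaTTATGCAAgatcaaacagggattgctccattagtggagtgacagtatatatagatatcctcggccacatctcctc
Of the 10 genes, 8 had an entry in that table, from 250 bases before to 50 after the RefSeq start. The C/EBP letters occurred in 5 of the 8 and in 36.8% of 32817 promoters of the same length, and the PU.1 letters in 4 of the 8 and in 23.3%. The NF-kB motif occurred in 0 of the 8 and in 1.21% of all promoters. A match describes letters only and is no evidence of binding.

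The neutrophil class held 158 of 9342 cells in the control library (1.69%) and 81 of 6897 in the antibody library (1.17%), a log2 ratio of shares of -0.53 with an interval of -0.93 to -0.13. Its cells fell into 2 stages by the marker list that placed them. Late neutrophil-like cells, found through Csf3r, Cxcr2, Mmp9, Il1r2, Retnlg, Ly6g and Mmp8, numbered 158 in the control library and 69 in the antibody library. Neutrophil precursor-like cells, found through Prtn3, Ctsg, Ms4a3, Cebpe, Fcnb, Ltf and Cd177, numbered 0 and 12. A count of 0 of 9342 cells allows a share of up to 0.0395%, and the 12 of 6897 cells made up 0.174% (0.0899% to 0.304%).

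Detection of the markers that placed the cells describes both stages and tests nothing, since at least 3 of them were required. Among late neutrophil-like cells Csf3r was found in 91.8% and 95.7% of the control and antibody cells and Il1r2 in 86.1% and 92.8%. Ly6g, the usual surface marker of mouse neutrophils, was found in only 3.16% and 5.80% of these shallow cells, whose median was 1326.5 and 1440 UMIs. The precursor-like cells were deep, with a median of 25176 UMIs. All 12 held Prtn3 and Ms4a3, 11 held Cebpe and 10 held Ctsg, each of the 8 macrophage markers was at 0 in them, and Cd3e, a T cell gene, was found in 1. Monocyte markers were present in them: the 8 on the list summed to 4222 CPM, beside 6153 CPM in monocyte-like cells and 1090 CPM in late cells of the same library. Ly6c2, one of these, was found in all 12 cells, F13a1 in 5, and 2 of the 8 were at 0. A limit of 1000 genes per cell kept all 12 precursor-like cells and removed most late cells, leaving 18 and 8, and turned the log2 ratio of the class share to 0.61 (-0.38 to 1.61). At least 4 detected markers in place of 3 gave 0, as against 11, precursor-like cells. An exclusive gate, which left cells unassigned when another class had too large a share of its markers detected, gave 0, as against 7.

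S100a8 and S100a9, whose products pair as calprotectin, had the highest levels of the 10 genes in neutrophils. The neutrophil class held S100a8 at 23691 CPM in the control and 50320 CPM in the antibody library, and S100a9 at 21280 and 52835 CPM. The log2 ratios were 1.09 (1.04 to 1.13) for S100a8 and 1.31 (1.27 to 1.36) for S100a9. Both levels were thus higher in the antibody library, and the 12 precursor-like cells contributed 288936 of the 404489 UMIs of the class there. In late neutrophil-like cells alone, where no precursor enters, S100a8 stood at 23691 and 42370 CPM, a log2 ratio of 0.84 (0.78 to 0.89). S100a9 stood at 21280 and 39584 CPM, a log2 ratio of 0.90 (0.84 to 0.95). Neither reached 2-fold in late cells.

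Single late cells spread widely and overlapped between the libraries. S100a8 ran from 0 to 166745 CPM over 158 control cells with a median of 13945, and from 0 to 146239 CPM over 69 antibody cells with a median of 23379. For S100a9 the medians were 10355 and 23175 CPM. At 1000 UMIs per cell, S100a8 was found in 94.4% and 86.8% of neutrophil-class cells (32 and 5 shallower cells left out), as against 0.230% and 0.563% of T and NK cells, which should lack it. Without thinning the shares were 93.7% and 90.1% of neutrophil-class cells at medians of 1326.5 and 1557 UMIs, and 1.25% and 2.09% of T and NK cells at medians of 4773.5 and 4107 UMIs. The share of cells with the transcript was therefore not higher with the antibody, while the summed level was.

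**Figure D1:**
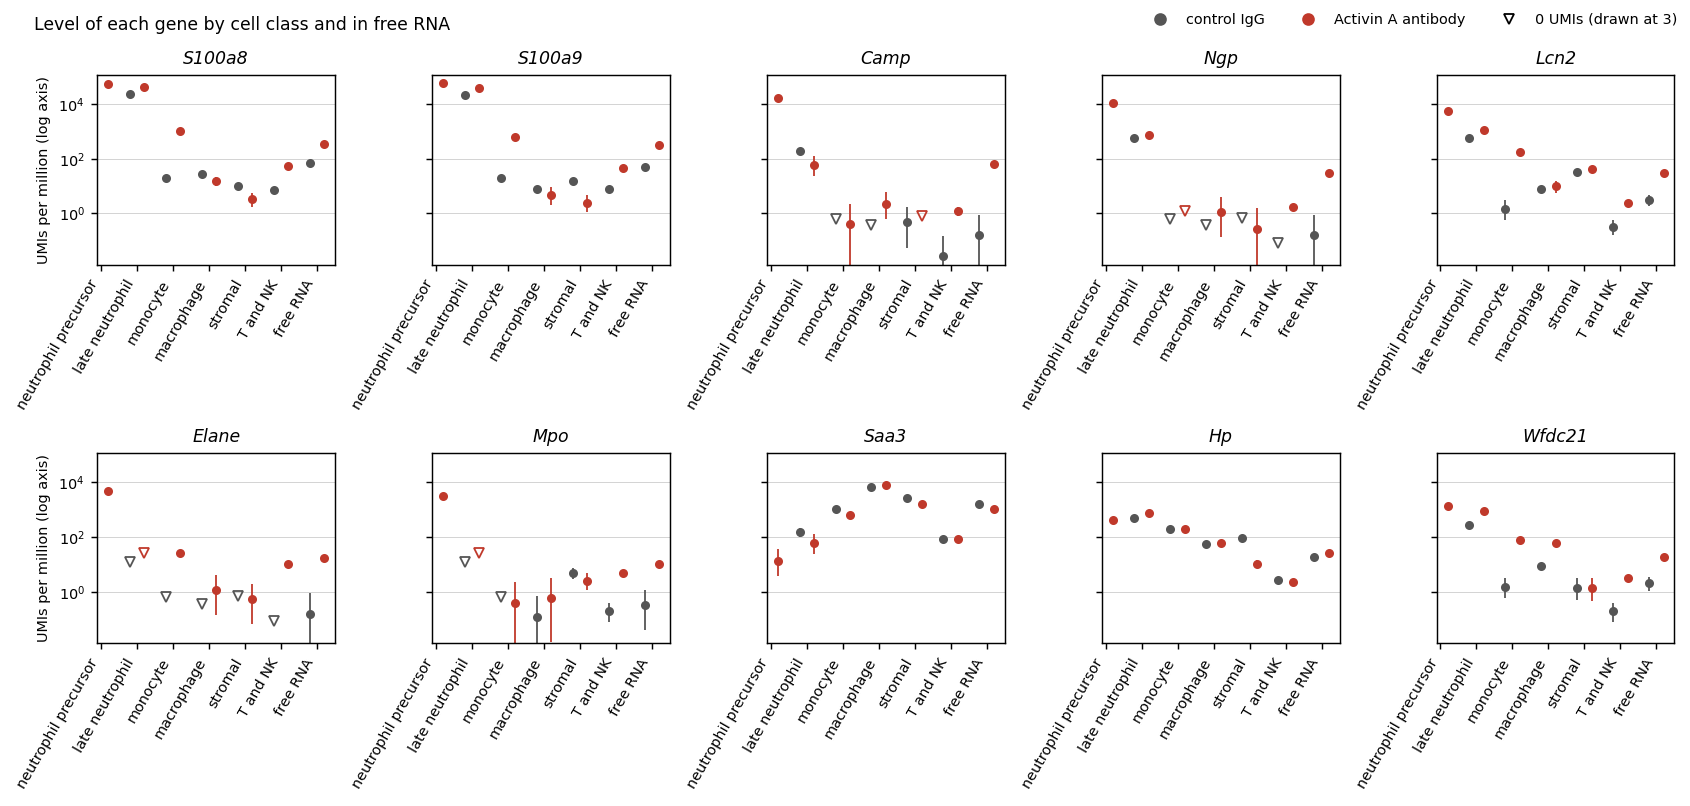
Level of each of the 10 genes (CPM, log axis) in each cell class and in free RNA, with 1 point per library, bars for the 95% counting interval and open triangles, drawn at 3 UMIs, where a class had 0. S100a8 stands at 23691 and 42370 CPM in late neutrophil-like cells, while Saa3 is highest in macrophages, at 6830 and 8320 CPM.

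Elane encodes neutrophil elastase and Mpo myeloperoxidase, both enzymes of primary granules. In the control neutrophil class both had 0 UMIs in 158 cells, where 3 UMIs would amount to 12.5 CPM. In the antibody library Elane had 1453 UMIs (3592 CPM) and Mpo 920 UMIs (2274 CPM). Set against 3 UMIs in the control class, Elane was 287-fold higher and Mpo 182-fold higher. The lower limits of their log2 ratios were 7.87 and 7.21. All of these UMIs lay in precursor-like cells: in the 69 late cells of the antibody library both genes were again at 0, where 3 UMIs would be 26.0 CPM.

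Camp encodes the cathelicidin precursor and Ngp the neutrophilic granule protein, both stored in secondary granules. Camp stood at 192 CPM in the control neutrophil class (46 UMIs) and 11919 CPM with the antibody (4821 UMIs), a log2 ratio of 5.96 (5.54 to 6.41). Ngp stood at 596 CPM (143 UMIs) and 7726 CPM (3125 UMIs), a log2 ratio of 3.70 (3.46 to 3.95). These values rested on few cells. All 46 Camp and 143 Ngp UMIs of the control class came from 1 late cell of 4252 UMIs, which also held 19 UMIs of Ltf and 99 of Retnlg. In the antibody library the precursor-like cells held 4814 of the Camp UMIs and 3039 of the Ngp UMIs, and 2 late cells held the rest. With late cells alone the log2 ratio of Camp was -1.66 (-3.05 to -0.50), the opposite direction, and that of Ngp was 0.32 (-0.08 to 0.72).

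Lcn2, which encodes lipocalin 2, is both a secondary granule and an acute-phase gene and binds bacterial siderophores. It stood at 591 CPM in the control neutrophil class and 4393 CPM in the antibody one, a log2 ratio of 2.89 (2.65 to 3.15), and at 5697 CPM in the precursor-like cells. Late cells alone gave 591 and 1134 CPM, a log2 ratio of 0.94 (0.58 to 1.29). Of the Lcn2 UMIs behind these late-cell levels, 1 control cell held 58 of 142 and 1 antibody cell 59 of 131. Lcn2 was found in more late cells than Camp, in 19.6% of the control and 31.9% of the antibody cells, and in 15.9% and 25.0% at 1000 UMIs per cell. T and NK cells at that depth held it in 0.0353% and 0.0433%.

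Wfdc21, a small whey-acidic-protein domain gene, was also higher in the antibody library. Its level was 271 CPM in the control neutrophil class and 1206 CPM in the antibody one, a log2 ratio of 2.16 (1.78 to 2.55). It was the 1 gene of the 10 that stayed past 2-fold upward in late cells alone (4.55% of 2881 tested genes were), at 271 and 883 CPM, a log2 ratio of 1.71 (1.24 to 2.18). Of the Wfdc21 UMIs behind these late-cell levels, 1 control cell held 22 of 65 and 1 antibody cell 30 of 102. The share of late cells with Wfdc21 was 14.3% and 25.0% at 1000 UMIs per cell, with intervals of 8.69% to 21.6% and 15.0% to 37.4% that overlap.

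Hp encodes haptoglobin, which binds free haemoglobin, and Saa3 encodes a serum amyloid A. Hp stood at 504 CPM in the control neutrophil class and 507 CPM in the antibody one, a log2 ratio of 0.01 (-0.32 to 0.34). In late cells it stood at 504 and 736 CPM, a log2 ratio of 0.55 (0.13 to 0.96), and precursor-like cells held 415 CPM. Saa3 was low in neutrophils, at 150 CPM (36 UMIs) and 27.2 CPM (11 UMIs), a log2 ratio of -2.46 (-3.59 to -1.46). Free RNA held far more Saa3, at 1597 and 1062 CPM.

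Of the 10 genes, 8 were at least 2-fold higher and 1 at least 2-fold lower with the antibody in the neutrophil class, where a gene needed 20 UMIs over both libraries. Among the 4474 genes that met this, 20.9% were higher and 27% lower by that fold. In late cells 8 of the 10 had enough UMIs, of which 1 (Wfdc21) was higher and 2 (Camp and Saa3) lower, beside 4.55% and 11.9% of 2881 genes. The median log2 ratio over the tested members was 2.52 in the class and 0.69 in late cells, and over all tested genes it was -0.31 and -0.16. Summed, the 10 genes made up 4.73% of neutrophil-class UMIs in the control and 13.5% in the antibody library, and 8.56% in its late cells.

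The genes of skeletal muscle moved with the libraries in these cells. All 6 listed muscle genes together stood at 733 CPM in control late cells and 86.5 CPM in antibody late cells, 0 and 1 of the 6 being at 0. The 5 with enough UMIs were all over 2-fold lower, Acta1, skeletal muscle actin, having 67 and 4 UMIs. In free RNA Acta1 stood at 675 and 576 CPM. What part muscle RNA had in the levels of the 10 genes was not tested.

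The 12 precursor-like cells ranged from cells with primary granule transcripts to cells with secondary ones. Here they are ordered by falling Prtn3, proteinase 3 of primary granules, a gate marker that is no member. Elane read 10811, 12755, 8492, 4000, 4675, 6250, 994, 1180, 1618, 358, 0 and 236 CPM in that order. Mpo read 12134, 8062, 4531, 3446, 6545, 2329, 0, 381, 0, 0, 0 and 0 CPM. Both were high in the same cells, with Mpo at 0 in 5 of the 6 cells of lowest Prtn3 and Elane at 0 in 1.

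Camp ran in the other direction, at 45.6, 60.2, 0, 0, 0, 30628, 0, 25266, 26642, 69667, 45371 and 44494 CPM. Ngp read 0, 0, 0, 39.6, 0, 9355, 27.6, 31735, 8383, 42502, 29376 and 36705 CPM. The 2 secondary granule genes were thus high in the same 6 cells, and those 6 were also the cells in which Ltf, lactoferrin, was found. Elane and Mpo summed to over 1000 CPM in 8 of the 12 cells, Camp and Ngp in 6, and both pairs in 3. As these cells were gated on Prtn3, Ctsg and Ltf, among others, the order describes the cells and tests nothing.

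S100a8 read 11404, 20215, 2381, 198, 935, 98793, 46341, 70206, 77728, 154312, 99739 and 153901 CPM in that order. The 5 cells of highest Prtn3 were low, at 198 to 20215 CPM, and the other 7 reached 46341 CPM or more. Lcn2 read 45.6, 481, 695, 713, 0, 6677, 4778, 8714, 8632, 18164, 15149 and 16877 CPM, low and high in the same cells. The 10 genes together made up 0.867% of the UMIs of the cell ranked 4 and 43.9% of those of the cell ranked 10 by Prtn3. Every one of the 12 held Mki67 or Top2a, genes of dividing cells, and 6 held all 6 listed division genes.

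**Figure D2:**
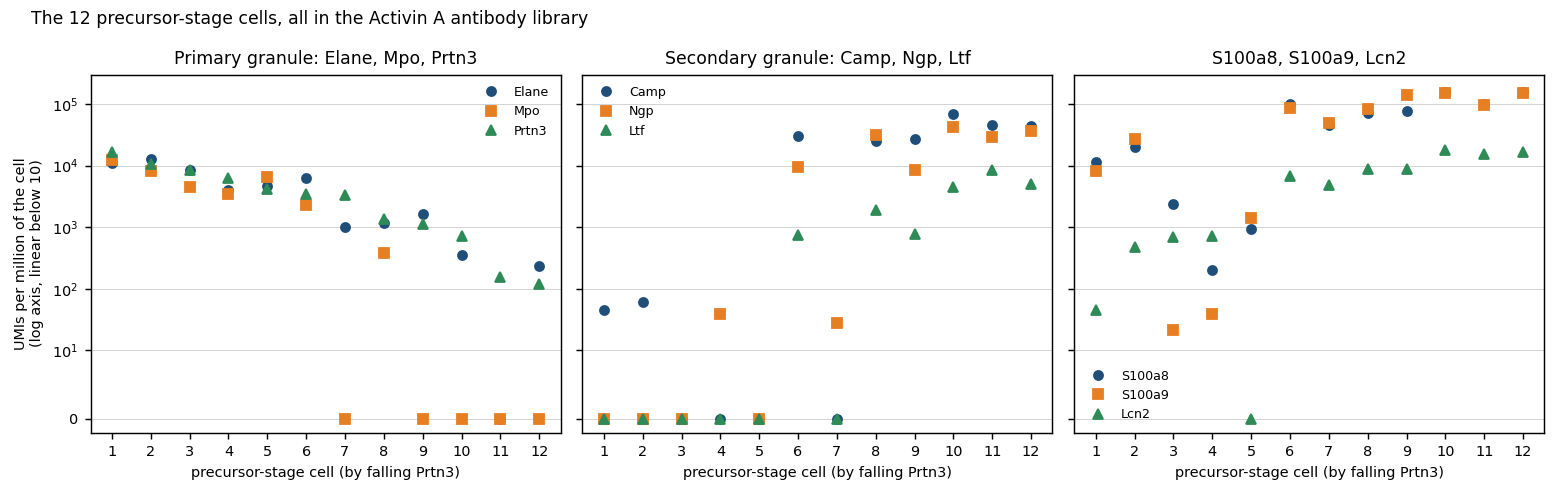
The 12 precursor-like cells, all from the antibody library, ordered by falling Prtn3 on the horizontal axis, with the CPM of each cell on the vertical axis (logarithmic, linear under 10) and 1 marker shape per gene. Mpo falls from 12134 CPM in the first cell to 0 in the last, while Camp goes from 45.6 to 44494 CPM.

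Lists of related genes were counted by the same fold, and were drawn up with results of these data known. Some of their genes, such as Ctsg, Ltf, Mmp9 and Retnlg, were also gate markers. Of 5 primary granule genes outside the 10, 4 were over 2-fold higher with the antibody in the neutrophil class and 0 lower, with a median log2 ratio of 6.39, beside 20.9% higher and 27% lower of all 4474 genes. Ctsg, cathepsin G, had 0 UMIs in the control and 623 in the antibody class. Of 8 tested secondary granule genes 7 were higher and 0 lower, with a median log2 ratio of 2.54. Ltf stood at 95.8 and 875 CPM, and in late cells alone at 95.8 and 8.65 CPM, again the opposite direction. These late-cell levels rested on 23 and 1 UMIs, 19 of them in 1 control cell. Of the 5 secondary granule genes tested in late cells 2 were higher and 2 lower, with a median log2 ratio of 0.83. Beside them stood 4.55% higher and 11.9% lower of 2881 genes.

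Genes of late neutrophils went the other way in the class as a whole. Of 11 tested genes of tertiary granules and late neutrophils 0 were higher and 7 lower, with a median log2 ratio of -1.31, beside 27% lower and a median of -0.31 over all 4474 genes. Mmp9, gelatinase B of tertiary granules, stood at 1829 and 571 CPM, and in late cells at 1829 and 1999 CPM. Within late cells 2 of 10 were higher and 0 lower, and Retnlg, a resistin-like secreted protein, stood at 1516 and 7685 CPM, a log2 ratio of 2.34. Few cells held much of it: 1 late cell had 99 of the 364 control UMIs, and 2 had 465 and 172 of the 888 antibody UMIs. Retnlg was found in 19.6% of control and 47.8% of antibody late cells. In precursor-like cells Mmp9 was at 0.

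The relatives of the calprotectin and acute-phase genes are to be read beside the same shares of all genes, 20.9% higher and 27% lower in the class and 4.55% and 11.9% in late cells. Of 12 further S100 genes 5 were tested, with 0 higher and 1 lower in the class and 0 and 2 in late cells. Of 18 acute-phase genes 3 were tested, with 0 higher and 2 lower in the class and 0 and 0 in late cells. Il1rn, the interleukin 1 receptor antagonist, stood at 846 and 240 CPM in the class and at 846 and 839 CPM in late cells. Of 7 tested relatives of Wfdc21 and the cathelicidin Camp, 2 were higher and 1 lower in the class, with a median log2 ratio of -0.25. In late cells 5 were higher and 0 lower, among them Wfdc17 at 641 and 2484 CPM. Of the receptors and regulators of these genes 1 of 8 was higher and 4 lower in the class, and 0 of 7 either way in late cells.

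In monocyte-like cells (687 and 410 cells) the calprotectin genes stood far under their neutrophil level. S100a8 stood at 19.5 CPM in the control library (91 UMIs) and 1029 CPM in the antibody library (2601 UMIs), a log2 ratio of 5.72 (5.42 to 6.04). S100a9 stood at 20.5 and 611 CPM, a log2 ratio of 4.90 (4.60 to 5.21). Lcn2 stood at 1.50 and 177 CPM, Wfdc21 at 1.50 and 81.5 CPM, and Elane at 0 and 26.1 CPM (0 and 66 UMIs). Set against 3 UMIs, Elane was 40.7-fold higher, and the lower limit of its log2 ratio was 5.01. Of the 7 members tested in monocytes 5 were over 2-fold higher and 0 lower, beside 1.93% and 3.27% of 10596 genes.

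Most UMIs behind these 5 ratios lay in 11 of the 410 antibody cells. The 11 had at least 1% of their UMIs from S100a8 and S100a9, and held 2505 of the 2601 S100a8 UMIs, 1529 of the 1545 S100a9 UMIs, 424 of the 448 Lcn2 UMIs, 160 of the 206 Wfdc21 UMIs and 62 of the 66 Elane UMIs. In the control library 1 of 687 cells was of that kind. Prtn3 was found in 10 of the 11, Elane in 5, Csf1r, the monocyte growth factor receptor, in 8 and F13a1, a gate marker, in 10, and Camp and Mpo in 0. Without such cells the log2 ratios were 2.43 for S100a8, 0.89 for S100a9, 3.24 for Lcn2 and 3.69 for Wfdc21. Elane, again set against 3 UMIs in the control library, gave 1.39. Few UMIs of S100a9, Lcn2 and Elane were left for these ratios. Free RNA itself had log2 ratios of 2.35 for S100a8, 2.68 for S100a9, 3.19 for Lcn2, 3.19 for Wfdc21 and 6.80 for Elane. Its S100a8 level was 69.1 and 351 CPM. What part free RNA had in the ratios left was not tested. Without such cells the log2 ratio of the 10 genes summed turned from 1.12 to -0.54.

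Hp and Saa3 were not past 2-fold in monocytes. Hp stood at 205 and 195 CPM, a log2 ratio of -0.07 (-0.23 to 0.08), and was found in 309 of 687 and 166 of 410 cells. At 1000 UMIs per cell 18.3% and 14.1% of monocyte-like cells held Hp, as against 0.141% and 0.130% of T and NK cells. Saa3 stood at 1030 and 659 CPM, a log2 ratio of -0.64 (-0.73 to -0.56), a level under that in free RNA. This summed level rested on few cells. Saa3 was at 0 in 471 and 342 cells, and the 69 and 41 cells with the most held 95.9% and 98.4% of its UMIs. The 6 muscle genes together stood at 209 and 31.7 CPM in monocytes, 1 of the 6 being at 0 in each library, and their part was not tested.

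**Figure D3:**
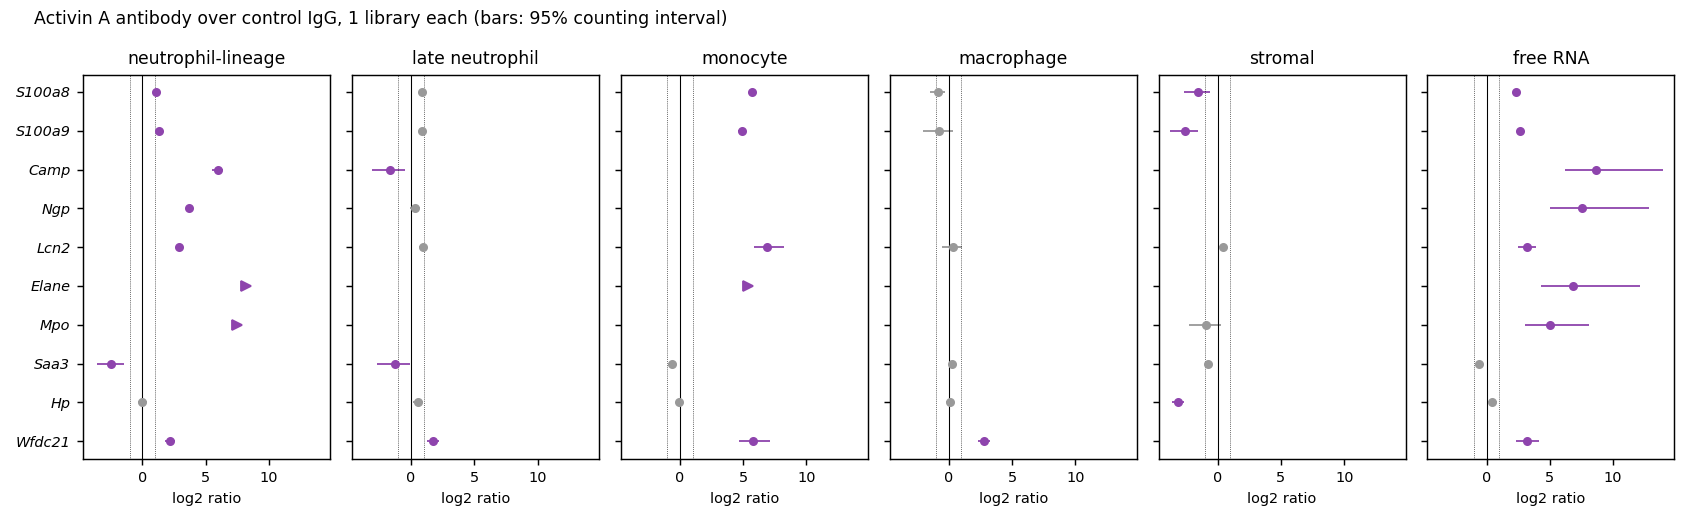
Antibody over control IgG as log2 ratios of CPM for each of the 10 genes in each class and in free RNA. Bars give the 95% counting interval, with 1 library per group. Dotted lines mark 2-fold, purple points lie past 2-fold and grey points do not. Triangles are ratios set against 3 UMIs where a library had 0, and no point is drawn under 20 UMIs. In the neutrophil class Camp lies at 5.96 and Hp at 0.01, and in stromal cells Hp lies at -3.11.

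Macrophage-like cells (1028 and 273 cells) had the highest Saa3 level of the classes compared. That level was 6830 CPM in the control and 8320 CPM in the antibody library, a log2 ratio of 0.28 (0.26 to 0.31). The class held 58.2% and 44.5% of all Saa3 UMIs of the libraries. Free RNA, estimated from haemoglobin transcripts that macrophages do not make, amounted to 2.12% of macrophage UMIs in the control library. In the antibody library 1 cell held all but 6 of the 731 haemoglobin UMIs of the class, and the estimate was 4.58% without it. Free RNA at 1597 and 1062 CPM of Saa3 was lower than the macrophage level.

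A minority of macrophages carried this level. Saa3 was over 1000 CPM in 350 of 1028 control cells (34.0%) and 76 of 273 antibody cells (27.8%), and at 0 in 441 and 163 cells. Between 500 and 2000 CPM, near that limit, lay 98 and 18 cells. The 103 and 27 cells with the most Saa3, 10% of each class, held 81.6% and 80.7% of the Saa3 UMIs. Single cells reached 183190 and 111716 CPM, with medians of 141 and 0 CPM. The spread over cells thus ran from 0 to over 100000 CPM in each library, and the share of cells with Saa3 at 1000 UMIs per cell was 38.7% and 30.3%, lower with the antibody while the summed level was higher.

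**Figure D4:**
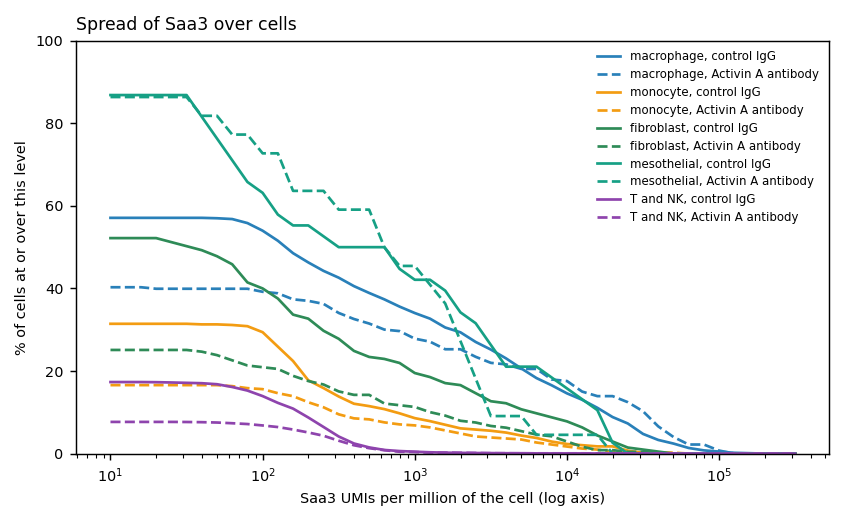
Share of cells (vertical axis, percent) whose Saa3 level reached the value on the horizontal axis (CPM of the cell, log axis), for each class and library. At 1000 CPM the macrophage curves stand at 34.0% (control IgG) and 27.8% (antibody).

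Other members of the acute-phase group were found in the same macrophages. Control cells with over 1000 CPM of Saa3 held Lcn2 at 20.6 CPM, Wfdc21 at 22.5 CPM and Hp at 87.4 CPM, and control cells with no Saa3 held them at 0.633, 0.633 and 33.6 CPM. In the antibody library the same groups held Lcn2 at 31.7 and 1.02 CPM, Wfdc21 at 206 and 0 CPM (104 and 0 UMIs) and Hp at 127 and 25.6 CPM. S100a8 stood at 45.4 and 10.8 CPM in the control groups and at 23.8 and 10.2 CPM (12 and 10 UMIs) in the antibody groups. Median depth was 8501.5 as against 6816 UMIs in the control and 5607 as against 5532 in the antibody library. Arg1, arginase 1, stood at 4839 and 2914 CPM in the control groups and 3922 and 1920 CPM in the antibody groups. Macrophage markers went different ways. C1qa stood at 3806 and 3234 CPM in the control groups and 2422 and 2195 CPM in the antibody groups, and Adgre1 at 275 and 268 CPM and 600 and 203 CPM. Mrc1, the mannose receptor, was lower in the cells with high Saa3, at 522 and 620 CPM and 469 and 603 CPM.

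Wfdc21 was the 1 member past 2-fold in macrophages as a whole, at 8.67 CPM (71 UMIs in 21 cells) and 59.5 CPM (104 UMIs in 15 cells), a log2 ratio of 2.78 (2.33 to 3.23). Of the 6 tested members 1 was higher and 0 lower, beside 4.95% and 2.76% of 11289 genes. With the exclusive gate S100a8 and Lcn2 also passed 2-fold, both lower, at log2 ratios of -1.60 and -1.88. Hp stood at 57.6 and 60.1 CPM and Lcn2 at 7.94 and 9.72 CPM, with intervals of their log2 ratios that included 0. S100a8 stood at 27.0 and 14.9 CPM, under its free RNA level of 69.1 and 351 CPM. Its log2 ratio was -0.86 and that of S100a9 was -0.75. Without the haemoglobin-rich cell, the expected free RNA exceeded the 26 S100a8 and 8 S100a9 UMIs of the antibody class. The subtraction thus left 0 UMIs of both there. Set at 3 UMIs instead, the log2 ratios became -3.86 and -1.91, which are bounds and no measured levels. Camp, Ngp, Elane and Mpo had 4 UMIs or fewer in each library.

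Stromal cells, 205 and 239 fibroblast-like and 38 and 22 mesothelial-like, held Saa3 at 2783 and 1602 CPM, a log2 ratio of -0.80 (-0.84 to -0.75). Hp, at 89.7 CPM (382 UMIs in 46 cells) and 10.4 CPM (38 UMIs in 12 cells), had a log2 ratio of -3.11 (-3.63 to -2.63). The direction was the same in both kinds of stromal cell: Hp stood at 105 and 12.7 CPM in fibroblast-like cells and at 43.1 and 1.33 CPM in mesothelial-like cells. In mesothelial-like cells this rested on 45 control UMIs, 25 of them in 1 cell, and 1 antibody UMI. In fibroblast-like cells there were 337 and 37 UMIs, 98 and 13 of them in 1 cell. At 1000 UMIs per cell 4.56% and 1.17% of stromal cells held Hp. The median stromal cell held 15351 and 10044 UMIs.

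Saa3 was found in 33 of 38 and 19 of 22 mesothelial-like cells, at 3320 and 1876 CPM. In fibroblast-like cells it was found in 107 of 205 and 60 of 239, at 2608 and 1532 CPM. Its summed level was lower with the antibody in both. The median mesothelial-like cell, however, stood at 501 and 635 CPM, and 42.1% and 45.5% of these cells were over 1000 CPM. Among fibroblast-like cells the medians were 34.4 and 0 CPM, and 19.5% and 11.3% were over 1000 CPM. Lcn2 stood at 32.4 and 42.6 CPM in stromal cells, a log2 ratio of 0.39 (0.06 to 0.74), above the free RNA level of 3.19 and 29.0 CPM. Of the 6 members tested 0 were over 2-fold higher and 3 lower (Hp, S100a8 and S100a9), beside 2.92% and 2.66% of 12349 genes.

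Calprotectin in stromal cells rested on single cells. Of the 42 S100a8 UMIs of the control class 30 lay in 1 cell, as did 46 of the 63 S100a9 UMIs, beside 12 and 9 UMIs in the antibody class. The log2 ratios were -1.59 for S100a8 and -2.59 for S100a9, and -0.36 and -0.86 without the cell of most UMIs in each library. Mpo, by contrast, had 20 UMIs in 15 control and 9 UMIs in 5 antibody stromal cells, with 0 and 2 UMIs of Elane. At 4.70 CPM it stood over the 0.319 CPM of free RNA in the control library, and at 2.46 CPM under the 10.2 CPM of free RNA in the antibody library.

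T and NK cells (5672 and 4651 cells), which should lack these genes, also held some of their UMIs. S100a8 stood there at 7.18 and 54.1 CPM, and 1041 of the 1349 UMIs of the antibody class lay in 1 cell. Elane had 0 and 268 UMIs, 264 of them in that same cell, whereas the 30 Camp UMIs of the antibody class lay in 30 cells. The cell with 264 Elane UMIs also held 6 precursor markers, among them 142 UMIs of Prtn3, all 6 division genes and 3 UMIs of Cd3e. Whether it was a doublet or a misplaced precursor-like cell was not tested. Of the 10 genes 8 were over 2-fold higher and 0 lower, beside 1.96% and 2.22% of 14928 genes. Saa3 stood at 85.6 and 88.0 CPM and Hp at 2.68 and 2.25 CPM. Free RNA by the haemoglobin estimate made up 0.19% and 0.75% of T and NK UMIs. These rested on 2 and 14 haemoglobin UMIs, and 3 in the control would give 0.284%. What part free RNA had in the T and NK levels was not tested.

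Free RNA differed between the libraries too. Camp had 1 UMI in the control and 296 in the antibody free RNA (0.159 and 64.1 CPM), a log2 ratio of 8.65 (6.16 to 13.96). Elane had 1 and 82 UMIs, Ngp 1 and 137, and Mpo 2 and 47. S100a8 stood at 69.1 and 351 CPM and Lcn2 at 3.19 and 29.0 CPM, while Saa3 stood at 1597 and 1062 CPM. Of the 10 genes 8 were over 2-fold higher and 0 lower, beside 9.35% and 0.757% of 12675 genes, with a median log2 ratio of 3.19 as against 0.44.

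The ratio of 2 genes' UMIs differed between classes of the same library. In antibody free RNA Camp to Ngp stood at 2.16 (1.76 to 2.67) and in precursor-like cells at 1.58 (1.51 to 1.66), while late cells of that library gave 0.0814 (0.0318 to 0.175). Elane to Mpo stood at 1.74 (1.20 to 2.55) in free RNA, 1.58 (1.45 to 1.72) in precursor-like cells and 66 (11.4 to 2646) in monocyte-like cells. S100a8 to S100a9 stood at 1.11 (1.07 to 1.16) and 1.07 (1.03 to 1.11) in late cells, 0.920 (0.900 to 0.941) in precursor-like cells and 3.51 (2.64 to 4.72) in control macrophages. Free RNA gave 1.35 (1.16 to 1.56) for S100a8 to S100a9 in the control and 1.07 (0.993 to 1.14) in the antibody library. Of the class ratios given here, Elane to Mpo in precursor-like cells and S100a8 to S100a9 in antibody late cells lay within the interval of free RNA of their library, and the others lay outside it.

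**Figure D5:**
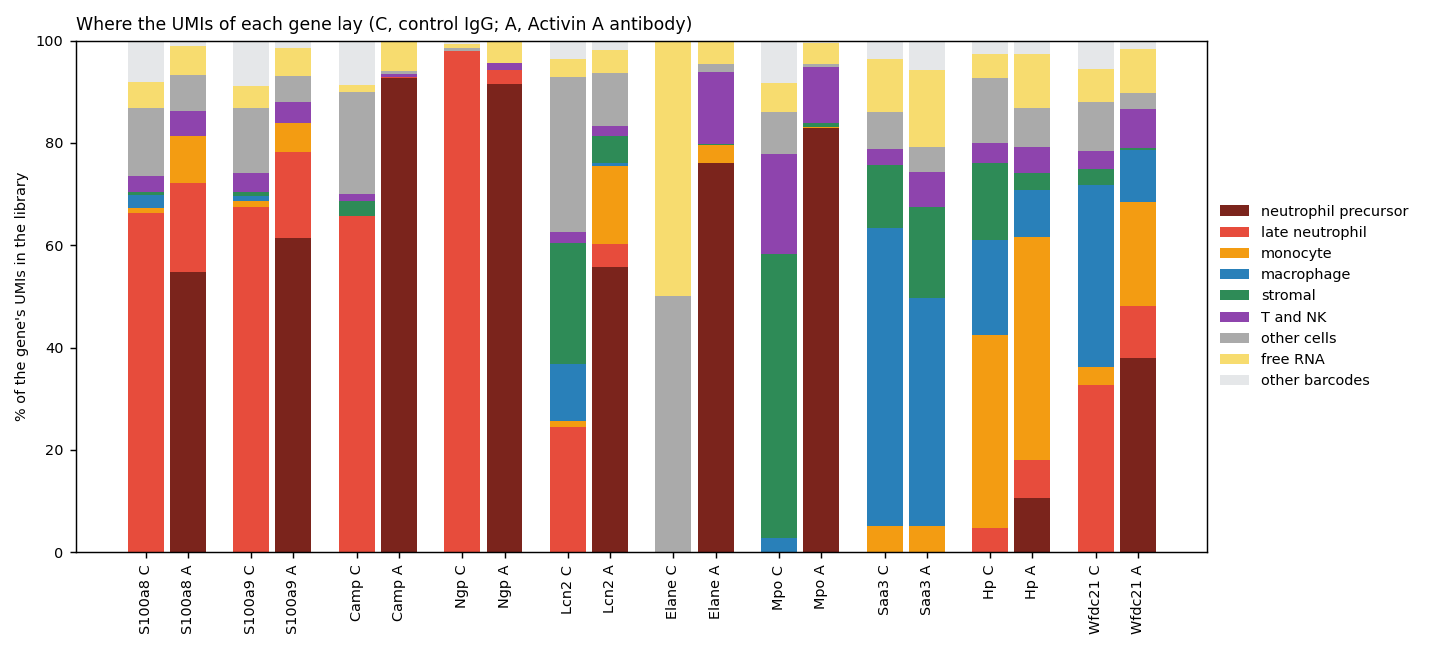
Percent of each gene's UMIs in a library that lay in each class or in free RNA, with 1 bar for control IgG (C) and 1 for the antibody (A) per gene (the Elane bar of the control rests on 2 UMIs). Precursor-like cells held 92.8% of Camp and 76.1% of Elane UMIs in the antibody library, and macrophages 58.2% and 44.5% of Saa3.

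Over whole libraries the 12 precursor-like cells held 92.8% of all Camp UMIs of the antibody library, 91.6% of Ngp, 83.0% of Mpo, 76.1% of Elane, 61.4% of S100a9, 55.8% of Lcn2, 54.7% of S100a8 and 38.0% of Wfdc21. In the control library late cells held 66.3% of S100a8 and 97.9% of Ngp. Monocyte-like cells held 37.8% and 43.5% of the Hp UMIs, although the Hp level was higher in the neutrophil class. Over 16 class and library profiles, which share libraries and depth, the genes most like Camp in log2(CPM + 1) were Ltf (Pearson r = 0.96) and Retnlg (0.95), and Ctsg (0.97) and Ms4a3 (0.95) were most like Elane. Ltf, Retnlg, Ctsg and Ms4a3 were also gate markers that placed cells in the neutrophil class, so their likeness tests nothing. Saa3 was most like Cfb, complement factor B (0.93), and Hp most like Abcd2 (0.95). Given as a description, these values carry no p.

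The genes lie on 7 chromosomes of GRCm38 (GENCODE M21), each as a protein-coding gene. S100a8 (chromosome 3, 90668978 to 90670035, + strand, 3 exons) and S100a9 (chromosome 3, 90692632 to 90695721, - strand, 3 exons) are neighbours in the S100 cluster. Camp (chromosome 9, 109847379 to 109849617, - strand) and Ngp (chromosome 9, 110419747 to 110423012, + strand) have 4 exons each. Elane (chromosome 10, 79886247 to 79888215, + strand) has 5 exons, and Mpo (chromosome 11, 87793581 to 87804413, + strand) has 14. Lcn2 (chromosome 2, 32384633 to 32388252, - strand), Saa3 (chromosome 7, 46711998 to 46715700, - strand), Hp (chromosome 8, 109575128 to 109579172, - strand) and Wfdc21 (chromosome 11, 83746940 to 83752642, + strand) have 6, 4, 5 and 3 exons.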

How the data were processed

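The deposited tables give unfiltered raw counts (UMIs of each gene in each barcode), which the authors made with Cell Ranger (7.0.1 and mm10 in the submitters' processing notes, version 4 per the file headers). The labels name the 10x 3′ v2 kit and the study's methods another, which was not settled. Limits of 500 to 8500 genes, of 500 to 100000 UMIs and of 10% for mitochondrial transcripts were set on cells, and doublets were not removed. Each cell took the class of the marker list with the largest share of genes detected, if at least 3 were, and ties between classes were left unassigned. Counts were summed per class and library. Exact intervals (conditional binomial for ratios, Clopper-Pearson for shares, Poisson for CPM) were used, which cover counting error only, and 0 counts were bounded at 3. A ratio counted as past the fold at 2-fold with at least 20 UMIs over both libraries. With 1 library per group no test was possible. Cells were thinned to 1000 UMIs for shares (seed 1). Free RNA in a class was estimated from haemoglobin.

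The members and gene lists were chosen with earlier results of these data known. All 10 members were named, and gate markers were named to describe a class. At most 4 genes per list were named (highest CPM in neutrophil-class cells). Up to 3 genes per member were ranked by Pearson r over 16 profiles of classes with at least 50 cells. These came from 13249 genes with at least 200 UMIs. Cells singled out for S100a8 and S100a9, Saa3 levels with Arg1 and C1qa, and the order of the 12 precursor-like cells were chosen after values were seen. So were some alternatives, such as late cells alone and leaving out the cell of most UMIs. Promoter sequences came from RefSeq (GRCm38.p6) and positions from GENCODE M21. The interval and gate code was tested on simulated data. Python 3.11.15, numpy 2.4.6, scipy 1.17.1, pandas 2.3.3 and matplotlib 3.10.9 were used.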

Additional observations from a re-analysis of the deposited data

Results flagged for a closer look

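S100a8 and S100a9 went different ways in different classes. The log2 ratio of antibody over control was 1.09 in the neutrophil class, 5.72 in monocytes and -1.59 in stromal cells for S100a8, and 1.31, 4.90 and -2.59 for S100a9. With 1 library per group the difference between classes was not tested. In monocytes 11 antibody cells, and in stromal cells 1 control cell, held most of these UMIs.

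Some of the 10 genes also differed in classes outside the comparisons. The higher ratios there rested on single cells. In cancer-like cells (360 and 398) S100a8 had a log2 ratio of 3.98 (100 and 1680 UMIs, 1635 in 1 cell), S100a9 of 3.87 (73 and 1134 UMIs, 1081 in 1 cell) and Lcn2 of 2.34 (51 and 275 UMIs, 238 in 1 cell). Hp had a log2 ratio of 1.56 there (14 and 44 UMIs, 33 in 1 cell). Elane (0 and 31 UMIs, 28 in 1 cell) and Wfdc21 (0 and 27 UMIs, 26 in 1 cell) had log2 ratios of 3.28 and 3.08 when set against 3 UMIs. For all of these genes it was the same cancer-like cell, which also held 4 precursor markers, among them 58 UMIs of Prtn3. In dendritic-like cells (208 and 158) Saa3 had a log2 ratio of 3.51 (59 and 548 UMIs, 540 in 1 cell). Saa3 was lower in cancer-like cells, with a log2 ratio of -1.81 (442 and 134 UMIs in 203 and 79 cells), and in B cell-like ones, with -2.68 (58 and 5 UMIs in 45 and 5 cells), and there it was spread over cells. Its levels, 22.9 and 6.53 CPM in cancer-like and 51.0 and 7.97 CPM in B cell-like cells, lay under those of free RNA (1597 and 1062 CPM). What part free RNA had in them was not tested. What part doublets had in the cells that held most UMIs was not tested.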

How the results depend on the processing

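The log2 ratio of the 10 genes summed kept its direction in the neutrophil class under every setting run. Subtracting free RNA could not move it, since the class had 0 haemoglobin UMIs in both libraries and nothing was subtracted. At 3 haemoglobin UMIs free RNA would be 43.3% of the control and 9.89% of the antibody class. It was 1.70 with a 1000-gene limit, 1.44 with at least 4 markers, 1.82 with the exclusive gate, 1.65 with the members left out of the total, 0.96 as a mean over cells, 0.86 in late cells alone and 1.46 without the cell of most UMIs. In monocytes it was 1.18 with at least 4 markers, 0.79 with the exclusive gate, 0.60 as a mean over cells, 1.00 without the cell of most UMIs and, reversed, -0.54 without cells with at least 1% S100a8 and S100a9 UMIs. In macrophages it was 0.083 with the exclusive gate, 0.40 as a mean over cells and 0.17 without the cell of most UMIs, and in stromal cells -1.07, -1.33 and -0.88. The share of the neutrophil class turned from -0.53 to 0.61 with the 1000-gene limit, which removed most late cells. Free RNA under 50 UMIs gave 0.20. Of the single genes past 2-fold, Camp in the neutrophil class reversed, to -1.66 in late cells alone. In macrophages the exclusive gate gave -1.88 for Lcn2 and -1.60 for S100a8. The cause of these moves was not tested. Over all single genes and settings 199 values stayed within their main interval, 79 moved and 1 reversed. The 199 include free RNA subtractions in the neutrophil class, which could not move a value. A value counted as reversed only where the main ratio was at least 2-fold. Among genes under that fold, the sign also changed in 2 settings for Hp and 2 for Lcn2 in macrophages. It changed in 1 setting for S100a9 in macrophages and in 2 for Hp in the neutrophil class. Thinning to 500 UMIs moved 17 of 80 shares.

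Subtracting free RNA gave no value for macrophages, where 1 haemoglobin-rich cell set the estimate to 558%. Without that cell the subtraction gave 0.31 for the 10 genes summed. For S100a8 it gave -3.86, a bound, since 0 antibody UMIs were left and 3 were used. Means over cells gave none for Elane and Mpo in neutrophils or Elane in monocytes, and late cells alone none for Elane and Mpo. No paired analysis was possible because a group had only 1 library, and leaving out replicates did not apply. Depth limits low genes: 3 UMIs were 12.5 CPM in control neutrophils.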

Other observations

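Cells that no marker list placed also held calprotectin. The 684 control and 478 antibody cells left unassigned held S100a8 at 228 and 161 CPM and S100a9 at 196 and 125 CPM. Of them 33 control and 8 antibody cells had at least 1% of their UMIs from these 2 genes, at a median of 1207 and 1324 UMIs. Of these, 29 and 4 held 2 late neutrophil markers, under the 3 required. Lcn2 stood at 25.1 and 5.51 CPM in the unassigned cells and Saa3 at 1380 and 472 CPM. Elane had 0 and 2 UMIs there, and Camp 1 and 2.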
